A study of Anser cygnoides with 6 samples.

Results

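The creatine kinase and glycolytic enzyme genes of goose myoblasts were taken as the rows of the deposited gene table named CKMT2, CKB, GAPDH, PGK1, LDHB and PGAM1. The list had 10 names, and 6 of them matched a row of their own among 14283 genes. For LDHA, 1 further row without a symbol carried the enzyme's description. ENO1 and TPI1 lay in 2 loci that the assembly merged with neighbouring genes, so their values cannot be assigned to the enzyme alone, and HK2 was not matched and was not analysed here. The list was chosen with the GM and DM values in view. The values of these 9 rows are therefore given as a description, and where calls of the fit across all genes are counted for them, nothing is read from the counts.

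Primary myoblasts, the precursors of skeletal muscle fibres, came from embryonic leg muscle of wild-type Shitou geese and were mixed before being split into 6 cultures. The 3 DM cultures (differentiation) had been moved to 2% horse serum and kept there for 2 to 4 days by the labels, and the study's methods name a single day within that range. The 3 GM cultures (proliferation) were grown with 15% fetal bovine serum. The study's methods give this percentage for plating and a higher one for the serum replaced at differentiation. They also give a lower cell density for collecting GM than for starting differentiation. Stage, serum, density and time in culture therefore changed together and cannot be told apart. Because all cultures came from one mixed pool of embryos, p-values measure only the spread between these cultures. Cells had been replated to reduce fibroblasts, and no other cell selection was described. Ribosomal RNA was removed, and each culture gave 1 library. Levels are in FPKM, fragments scaled to transcript length and to the mapped total, which allows genes to be compared within a library.

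Glycolysis splits glucose into pyruvate in a chain of cytosolic enzymes and yields ATP and NADH. Lactate dehydrogenase then turns pyruvate into lactate and restores NAD. Creatine kinases move phosphate between ATP and creatine. A mitochondrial form loads creatine where ATP is made, and cytosolic forms return the phosphate to ATP where it is spent. Adult skeletal muscle is known for high levels of the muscle-type cytosolic enzyme, and the brain-type form is common in precursor cells and other tissues.

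Summed FPKM over the gene table lay between 171956 and 189885 in DM libraries and between 173444 and 182078 in GM libraries, and the number of reads behind each value is unknown. Myogenic genes were read in all 6 libraries. DES, MYH1B and MYMK, also on the muscle list, were not matched. The 8 muscle markers with a row summed to 138 to 149 FPKM in DM and 178 to 190 FPKM in GM, and they went both ways. By limma, MYOD1, MYF5, MYF6 and PAX7 were lower in DM, whereas MYH15, a myosin heavy chain, was higher, at 44.7 ± 3.86 FPKM in DM and 19.7 ± 0.524 FPKM in GM (SD, n = 3 each). MYOG, ACTA1 and TNNT3 did not pass the test. MYOG averaged 19.1 FPKM in DM and 26.3 FPKM in GM, with every DM library below every GM library. ACTA1 averaged 32.4 FPKM in DM and 38.2 FPKM in GM, and TNNT3 14.7 FPKM in DM and 10.4 FPKM in GM. The 8 fibroblast markers summed to 4580 to 4640 FPKM in DM and 2500 to 2590 FPKM in GM, and 5 of the 7 tested were higher in DM while POSTN was lower. Sums of endothelial markers were 1.28 to 1.36 FPKM in DM and 2.50 to 2.66 FPKM in GM. Those of adipocyte markers were 7.62 to 9.59 FPKM in DM and 10.2 to 10.4 FPKM in GM, and those of immune markers 20.2 to 29.1 FPKM in DM and 18.8 to 26.7 FPKM in GM. Neural markers summed to 7.07 to 9.07 FPKM in DM and 10.9 to 13.4 FPKM in GM, and chondrocyte markers to 1.44 to 2.07 FPKM in DM and 3.65 to 4.24 FPKM in GM, with MATN1 listed at 0 throughout. None of the 5 erythroid markers was matched. In bulk RNA, fewer cells of a type and less RNA per cell cannot be told apart, and the part of the fibroblast and muscle marker shifts in the values below was not tested.

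Among the creatine kinases, the mitochondrial and the brain-type gene differed in opposite directions between the stages. CKMT2, the sarcomeric mitochondrial creatine kinase, had 7.45, 7.32 and 5.10 FPKM in DM_1, DM_2 and DM_3, against 0.324, 0.549 and 0.376 FPKM in GM_1, GM_2 and GM_3. Every DM library lay far above every GM library, and DM_3 was the lowest of its stage. The mean was 6.62 ± 1.32 FPKM in DM and 0.416 ± 0.118 FPKM in GM (SD, n = 3 each), a 15.9-fold ratio. The log2 fold change, DM over GM and computed on FPKM + 1, was 2.42 with a standard error of 0.15. Adding 1 shrinks the change of a gene with low levels, and a pseudocount of 0.1 gave 3.71. CKMT2 passed the filter on low values, a mean of at least 0.5 FPKM over all libraries, only through its DM level.

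CKB, the brain-type cytosolic creatine kinase, had 46.6, 58.1 and 53.7 FPKM in DM_1, DM_2 and DM_3, against 87.6, 99.6 and 104 FPKM in GM_1, GM_2 and GM_3. The stages did not overlap, and DM was the lower one. Its mean was 52.8 ± 5.81 FPKM in DM and 97.0 ± 8.38 FPKM in GM (SD, n = 3 each), a log2 fold change of -0.87 with a standard error of 0.105. CKB was the larger transcript pool at both stages. Together, CKB and CKMT2 gave 59.4 ± 5.72 FPKM in DM and 97.4 ± 8.44 FPKM in GM, so the sum followed CKB. CKMT2 made up 13.8%, 11.2% and 8.67% of that sum in DM_1, DM_2 and DM_3, against 0.368%, 0.548% and 0.361% in GM_1, GM_2 and GM_3. Its ratio to CKB was 29.7 times as high in DM as in GM. The log2 difference was 4.89, and the SD of the log2 ratio between libraries, pooled over the stages, was 0.359. Unlike the log2 fold changes, this ratio was taken on FPKM without adding 1. Its GM side rests on low CKMT2 levels, of 0.324 to 0.549 FPKM. The muscle-type cytosolic gene CKM was not matched and was not analysed here.

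**Figure D1:**
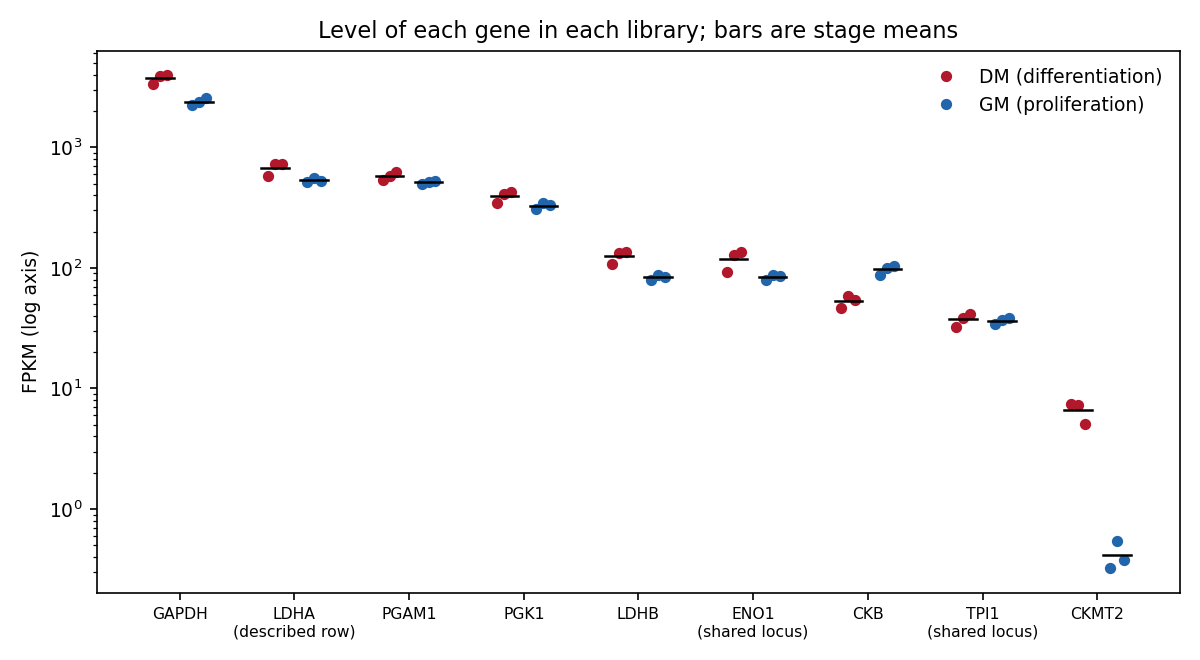
FPKM of each gene in each library on a log axis, with 3 DM libraries left of 3 GM libraries and a bar at each stage mean. CKMT2 shows the widest gap, 6.62 against 0.416 FPKM. CKB is the 1 row whose DM libraries all lie below its GM libraries. PGK1 and the TPI1 locus overlap. The small PGAM1 gap, 576 against 515 FPKM, reverses under quantile normalization.

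GAPDH, the dehydrogenase that makes the NADH of glycolysis, had the highest level of the list. It had 3372, 3869 and 3939 FPKM in DM_1, DM_2 and DM_3, against 2251, 2377 and 2547 FPKM in GM_1, GM_2 and GM_3. All DM libraries were above all GM libraries. Its mean of 3727 ± 309 FPKM in DM ranked 3 among all genes, and its mean of 2392 ± 149 FPKM in GM ranked 5 (SD, n = 3 each). The ratio of the means was 1.56, and the log2 fold change was 0.64 with a standard error of 0.0984. Over every alternative run, the change of GAPDH stayed between 0.60 and 0.79. GAPDH alone took 2.04% of all summed FPKM in DM and 1.34% in GM, and the 6 genes together took 2.67% ± 0.0918 in DM and 1.91% ± 0.0643 in GM.

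PGK1, phosphoglycerate kinase, makes the first ATP of the chain. Its level was 343.6, 407 and 429 FPKM in DM_1, DM_2 and DM_3, against 309, 343.7 and 329 FPKM in GM_1, GM_2 and GM_3. The lowest DM value and the highest GM value nearly coincided, so the stages overlapped. After rescaling to equal library totals, PGK1 had 361, 396 and 408 FPKM in DM_1, DM_2 and DM_3, against 322, 341 and 328 FPKM in GM_1, GM_2 and GM_3, with no overlap. As deposited, the means were 393 ± 44.3 FPKM in DM and 327 ± 17.4 FPKM in GM (SD, n = 3 each), a log2 fold change of 0.26 with a standard error of 0.0986.

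PGAM1 is the phosphoglycerate mutase that acts on the product of PGK1. It had 529.8, 579 and 620.2 FPKM in DM_1, DM_2 and DM_3, against 499.8, 517 and 527 FPKM in GM_1, GM_2 and GM_3. The groups were separated by a gap smaller than the spread within DM. The means were 576 ± 45.3 FPKM in DM and 515 ± 13.9 FPKM in GM (SD, n = 3 each), with a log2 fold change of 0.16 and a standard error of 0.0764. Quantile normalization turned the sign of PGAM1, to -0.08, so no direction is given for it.

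LDHB, the heart-type subunit of lactate dehydrogenase, had 108, 132 and 136 FPKM in DM_1, DM_2 and DM_3, against 78.7, 87.2 and 84.7 FPKM in GM_1, GM_2 and GM_3. DM was higher in all libraries. The means were 125 ± 15.1 FPKM in DM and 83.5 ± 4.37 FPKM in GM (SD, n = 3 each), a log2 fold change of 0.57 with a standard error of 0.101. The row described as LDHA, the muscle-type subunit, had 574, 725 and 722 FPKM in DM_1, DM_2 and DM_3, against 512, 560.0 and 521 FPKM in GM_1, GM_2 and GM_3. DM_1 lay only just above GM_2 here, whereas DM_2 and DM_3 stood clear of GM. The log2 fold change of the LDHA row was 0.34 with a standard error of 0.109, and it shrank to 0.07 under quantile normalization.

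Both subunits thus had higher means in DM, and their sum was 799 ± 102 FPKM in DM and 614 ± 29.4 FPKM in GM (SD, n = 3 each). The muscle-type subunit was the major form at both stages. LDHB made up 15.8%, 15.4% and 15.9% of the sum in DM_1, DM_2 and DM_3, against 13.3%, 13.5% and 14.0% in GM_1, GM_2 and GM_3. This share did not overlap between stages and varied less between libraries than either level did. The log2 difference of the LDHB to LDHA ratio was 0.24. The SD of that log2 ratio between libraries, pooled over the stages, was 0.0363.

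ENO1 (enolase) and TPI1 (triose phosphate isomerase) could be read only with their neighbours. The locus of ENO1, SLC2A5 and GPR157 had 92.1, 129 and 136 FPKM in DM_1, DM_2 and DM_3, against 78.9, 86.8 and 86.1 FPKM in GM_1, GM_2 and GM_3, a log2 fold change of 0.48 with a standard error of 0.151. DM_1 sat close to GM there. The locus of TPI1 and USP5 had 32.4, 38.6 and 41.1 FPKM in DM_1, DM_2 and DM_3, against 34.5, 37.0 and 38.2 FPKM in GM_1, GM_2 and GM_3. The stages overlapped fully, and the log2 fold change of 0.03 was smaller than its standard error of 0.0984.

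By the limma test with Benjamini-Hochberg adjustment over 10381 tested genes, 1 of the 6 genes, CKMT2, was past an adjusted p of 0.05 and a log2 fold change of 1, against 2.18% of tested genes called higher in DM, and 0 of 6 was called lower, at an adjusted or unadjusted p, against 1.84% at the adjusted p. With no limit on the fold change, 3 of 6 were called higher (CKMT2, GAPDH and LDHB), against 14.7% of tested genes, and 1 of 6 was called lower (CKB), against 15.5%. PGK1 and PGAM1 were not called. In 4 of 6 every DM library lay above every GM library (CKMT2, GAPDH, LDHB and PGAM1), which held for 23.0% of tested genes, and in CKB every DM library lay below, which held for 25.7%. The median log2 fold change was 0.42 over the 6 genes and -0.03 over all tested genes. Since this contrast chose the list, nothing is read from these counts.

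The order of levels was close to the same at both stages. In DM it ran GAPDH, LDHA row, PGAM1, PGK1, LDHB, ENO1 locus, CKB, TPI1 locus and CKMT2. In GM it ran GAPDH, LDHA row, PGAM1, PGK1, CKB, ENO1 locus, LDHB, TPI1 locus and CKMT2. CKB lay below LDHB in DM and above it in GM. The libraries of the LDHA row and PGAM1 overlapped at both stages, and so did those of LDHB and the ENO1 locus. All other neighbours in the order were separated in every library of the stage. CKMT2 ranked 4441 among all genes in DM and 10570 in GM.

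Levels were also set against GAPDH within the same library, which removes what scales a whole library. GAPDH itself was higher in DM, at 3727 FPKM against 2392 FPKM in GM. Any row that rose less than GAPDH is therefore lower per GAPDH in DM. As deposited, PGAM1, PGK1 and the LDHA row had higher means in DM, so their lower shares come from the denominator. PGAM1 was 15.7%, 15.0% and 15.7% of GAPDH in DM_1, DM_2 and DM_3, against 22.2%, 21.8% and 20.7% in GM_1, GM_2 and GM_3. PGK1 was 10.5% ± 0.347 of GAPDH in DM and 13.7% ± 0.769 in GM (SD, n = 3 each), and the LDHA row was 18.0% ± 0.903 in DM and 22.2% ± 1.603 in GM. In these 3 rows the stages did not overlap. LDHB differed less relative to GAPDH, at 3.36% ± 0.133 in DM and 3.496% ± 0.172 in GM, with overlap. CKB was 1.42% ± 0.0753 of GAPDH in DM and 4.05% ± 0.151 in GM. As a description of these libraries, the glycolytic rows did not share 1 ratio between the stages.

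**Figure D2:**
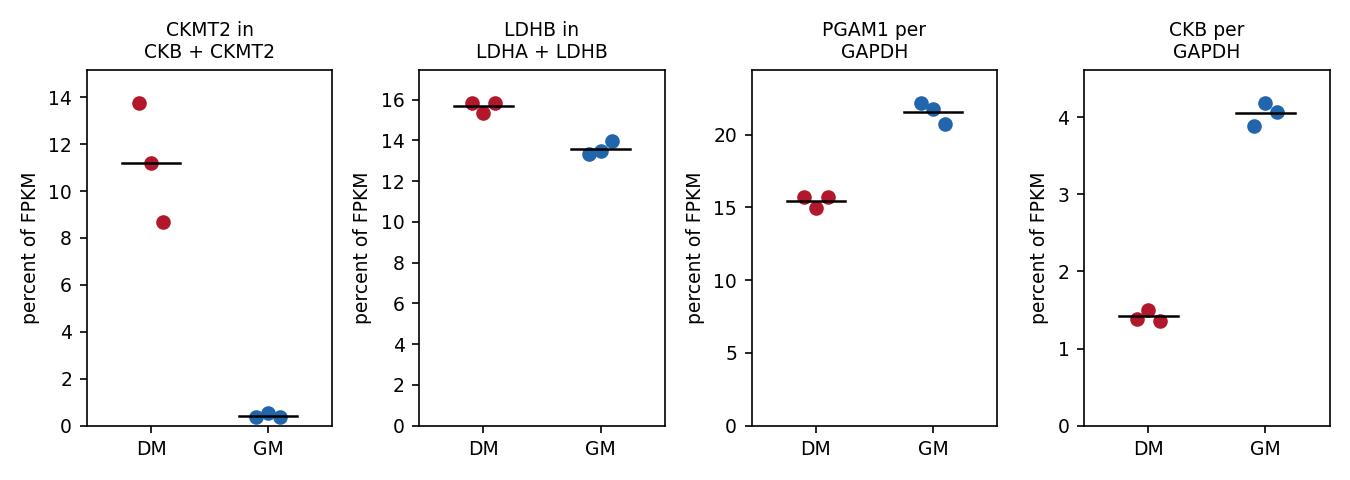
Within-library shares in percent of FPKM, with DM left of GM, 1 point per library and a bar at the mean. CKMT2 takes 11.2% of the creatine kinase sum in DM and 0.426% in GM, LDHB takes 15.7% of the lactate dehydrogenase sum in DM and 13.6% in GM, and PGAM1 and CKB are lower per GAPDH in DM. GAPDH itself is higher in DM. No panel shows an overlap between stages.

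Apart from CKMT2, the genes varied more, relative to their means, between the DM libraries than between the GM libraries. In DM_1, 5 of the 6 genes were at their lowest DM value, CKMT2 being the exception. They lay 8.06% (PGAM1) to 13.8% (LDHB) below their DM means, and the ENO1 locus lay 22.5% below. The 522 genes that averaged 50 FPKM or more had a median of 7.13% below the DM mean in DM_1, and 73.6% of them were lowest there. In GM_1 all 6 genes were at their lowest GM value, and 70.1% of the 522 genes were too. Coefficients of variation ran from 7.85% (PGAM1) to 19.9% (CKMT2) in DM and from 2.71% (PGAM1) to 28.3% (CKMT2) in GM, against medians of 8.58% in DM and 5.14% in GM for the 522 genes. After rescaling to equal totals, DM_1 still held the lowest DM value of those 5 genes, by 2.25% (PGAM1) to 8.19% (LDHB) below the mean.

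**Figure D3:**
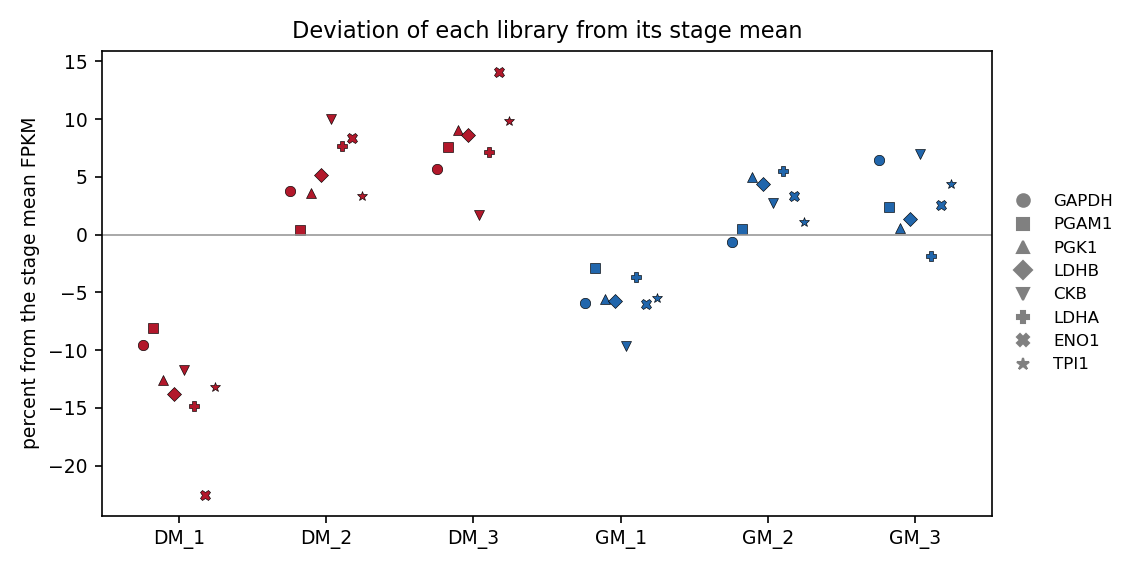
Percent by which each library lay from its stage mean, for all rows but CKMT2, with DM libraries left of GM libraries and 1 symbol per gene. All 8 rows are below the mean in DM_1, from -8.06% to -22.5%, and in GM_1, from -2.92% to -9.68%.

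The remaining glycolytic enzymes, which had not been chosen by the rule, were called in both directions. Of 15 rows, 12 were tested, and 4 were higher and 2 lower in DM at an adjusted p under 0.05. Of all tested genes, 14.7% were higher and 15.5% lower. The median log2 fold change was -0.14, against -0.03 over all tested genes. HK1, the general hexokinase, had 19.5 ± 1.34 FPKM in DM and 20.4 ± 1.30 FPKM in GM (SD, n = 3 each) and did not pass the test. GPI, which isomerises the product of hexokinase, averaged 87.8 ± 6.69 FPKM in DM and 111 ± 7.33 FPKM in GM, with a log2 fold change of -0.34 (limma adjusted p = 0.0259). The call of GPI was lost without DM_2, GM_2 or GM_3, and its adjusted p ran from 0.00175 to 0.0848 over the alternatives.

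PFKL and PFKP, phosphofructokinases that commit sugar to glycolysis, did not pass the test, with log2 fold changes of -0.18 and -0.10. Neither did ADPGK (-0.31), ENO4 (-0.17) or the ALDOC locus (-0.03). HK3 and HKDC1 lay under the filter. Of the 24 names on this list, 9 were not matched, among them PFKM, PGAM2 and ENO3. Those forms of the phosphofructokinase, mutase and enolase were not analysed here. Lower in the chain, ENO2, a second enolase, had 9.10, 8.47 and 8.91 FPKM in DM_1, DM_2 and DM_3, against 5.71, 6.04 and 6.04 FPKM in GM_1, GM_2 and GM_3. It rose by 0.50 on the log2 scale (SE 0.0671, limma adjusted p = 0.00333). PKM, the pyruvate kinase that ends glycolysis, had 546, 599 and 621 FPKM in DM_1, DM_2 and DM_3, against 434, 453 and 459.6 FPKM in GM_1, GM_2 and GM_3. Its log2 fold change was 0.39 (SE 0.0709, limma adjusted p = 0.0102), and its level was close to that of PGAM1. ENO2 and PKM stayed past the adjusted p under every alternative run.

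ALDOA, the muscle aldolase, gave 2 called rows that may share reads, since both are described as the same enzyme. The row named ALDOA averaged 100.2 ± 3.12 FPKM in DM and 81.3 ± 5.95 FPKM in GM (SD, n = 3 each), with a log2 fold change of 0.30 and a limma adjusted p of 0.0224. The second row, of 14.1 FPKM in DM and 11.7 FPKM in GM, had a log2 fold change of 0.25 and a limma adjusted p of 0.0297. Without DM_2, DM_3, GM_1 or GM_3 the first lost its call, with adjusted p between 0.0123 and 0.0752 over the alternatives. The second lost its call with the replicate number as a block and without any 1 library other than DM_1, and its adjusted p ran from 0.0175 to 0.0928. These rows are therefore uncertain.

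BPGM, which makes a side product of glycolysis that binds haemoglobin in mammalian red cells, was split within DM. It had 17.8, 5.04 and 5.81 FPKM in DM_1, DM_2 and DM_3, against 16.7, 18.0 and 17.5 FPKM in GM_1, GM_2 and GM_3. DM_1 lay inside the GM range and the other DM libraries at less than 6 FPKM. The log2 fold change of -1.003 did not pass the test (SE 0.422, limma adjusted p = 0.124). Without DM_1 it was -1.52 with an adjusted p of 0.00095, and over all alternatives the adjusted p ran from 0.00095 to 0.293.

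**Figure D4:**
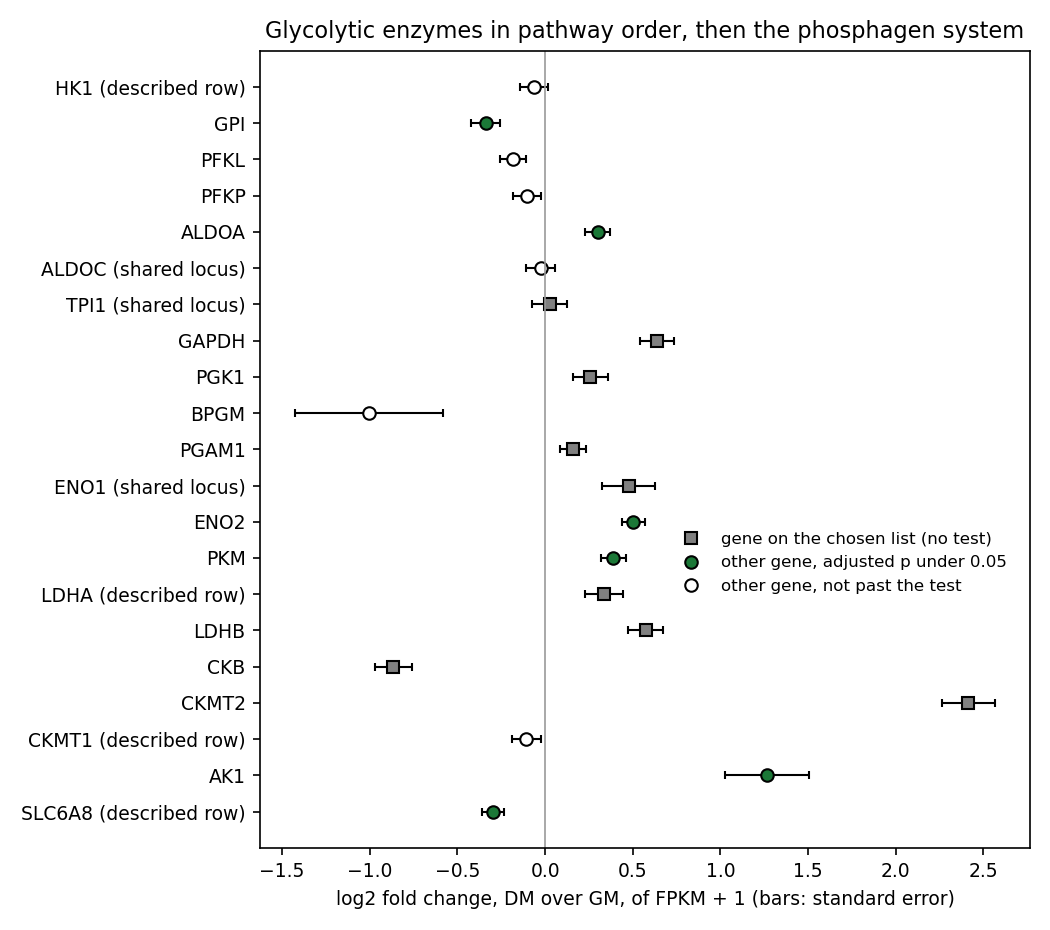
Log2 fold change, DM over GM, of FPKM + 1, with standard errors, for the enzymes from hexokinase down to lactate dehydrogenase and then the phosphagen genes. Grey squares are genes of the chosen list, with no test, and circles are other genes, green where the limma adjusted p was under 0.05. GPI lies left of 0, GAPDH, ENO2, PKM and LDHB lie right of it, and the PGAM1 value of 0.16 turns negative under quantile normalization.

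Beside the creatine kinases, 11 of 12 rows for creatine supply and adenylate kinases were tested. Of these, 1 was higher and 2 were lower, against 14.7% and 15.5% of all tested genes. The median log2 fold change was -0.11. AK1, the muscle adenylate kinase that evens out ATP, ADP and AMP, had 1.89, 2.52 and 2.88 FPKM in DM_1, DM_2 and DM_3, against 0.834 and 0.541 FPKM in GM_2 and GM_3, and it was listed at 0 in GM_1. It rose by 1.27 on the log2 scale (SE 0.240, limma adjusted p = 0.0117). With means of 2.43 FPKM in DM and 0.458 FPKM in GM, AK1 passed the filter at 0.5 FPKM only through its DM level. AK1 lost its call at a pseudocount of 0.1, where the log2 fold change was 2.67 and the adjusted p 0.0552. Its adjusted p ran from 0.00985 to 0.0552 over the alternatives that tested it, and the filter at 2 FPKM left it out.

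SLC6A8, the creatine transporter by its description, averaged 65.5 ± 1.96 FPKM in DM and 80.8 ± 4.53 FPKM in GM (SD, n = 3 each), with a log2 fold change of -0.30 and a limma adjusted p of 0.0162. AK3, a mitochondrial kinase of GTP and AMP, had a log2 fold change of -0.50 and a limma adjusted p of 0.0354. Without DM_2, GM_2 or GM_3 the call of SLC6A8 was lost (adjusted p 0.0159 to 0.0585 over the alternatives), and AK3 lost its call with no filter on low values and without DM_3 or any 1 GM library (0.0131 to 0.105). The creatine synthesis genes GATM and GAMT did not pass the test, with log2 fold changes of -0.43 and -0.21. CKMT1, the ubiquitous mitochondrial creatine kinase by its description, lay at 0.488 ± 0.0887 FPKM in DM and 0.603 ± 0.111 FPKM in GM, with overlap. The mitochondrial creatine kinase gene that was high in DM was therefore CKMT2. AK4, AK6, AMPD2 and AMPD3 did not pass the test, and AK5 lay under the filter.

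Of the 13 tested rows for regulators of glycolysis and the oxygen response, 2 were higher and 1 was lower. Over all tested genes, 14.7% were higher and 15.5% lower. The median log2 fold change of the list was 0.0018. CA9, a cell-surface carbonic anhydrase known as a target of hypoxia-inducible factors, had 4.23, 4.66 and 5.88 FPKM in DM_1, DM_2 and DM_3, against 0.487, 1.01 and 1.06 FPKM in GM_1, GM_2 and GM_3. It rose by 1.68 on the log2 scale (SE 0.168, limma adjusted p = 0.00135). EPAS1, a hypoxia-inducible factor subunit, had 9.93, 10.4 and 10.5 FPKM in DM_1, DM_2 and DM_3, against 18.4, 18.7 and 19.6 FPKM in GM_1, GM_2 and GM_3. It fell by 0.82 on the log2 scale (SE 0.0596, limma adjusted p = 0.000455), opposite to CA9. EGLN3, an oxygen-sensing hydroxylase, rose by 0.38 (limma adjusted p = 0.0104), and EGLN1, of the same family, did not pass the test (0.12). The HIF1A locus, shared with another gene, overlapped between stages. The locus of ARNT and CTSK averaged 23.3 FPKM in DM and 13.7 FPKM in GM, with a log2 fold change of 0.72 (limma adjusted p = 0.00106). That of TIGAR and CCND2 had 0.65 (limma adjusted p = 0.0147). These values cannot be assigned to ARNT or TIGAR alone. PFKFB2, PFKFB3 and PFKFB4, which set the level of the phosphofructokinase activator, did not pass the test.

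Among the 12 genes for pyruvate entry into mitochondria, 1 was higher and 4 were lower, against 14.7% and 15.5% of all tested genes. The median log2 fold change was -0.09. PDK4, a kinase that switches off pyruvate dehydrogenase, had 15.6, 14.7 and 16.4 FPKM in DM_1, DM_2 and DM_3, against 2.29, 6.17 and 5.68 FPKM in GM_1, GM_2 and GM_3. It rose by 1.61 on the log2 scale (SE 0.297, limma adjusted p = 0.0105). PDK4 made up 34.9% of the sum of PDK1, PDK3 and PDK4 in DM and 12.9% in GM, and PDK1 and PDK3 did not pass the test. The phosphatases that reverse these kinases were lower, with log2 fold changes of -0.37 for PDP1 (limma adjusted p = 0.00744) and -0.55 for PDP2 (limma adjusted p = 0.00311). DLAT, the acetyltransferase of the complex, had a log2 fold change of -0.31 (limma adjusted p = 0.0119), and PDHB (0.10) did not pass the test. DLD, the dehydrogenase subunit of the complex, had -0.34 and a limma adjusted p of 0.0459. It lost its call with no filter, with no trend in the fit, with the replicate number as a block, and without DM_1, DM_2 or any 1 GM library. Its adjusted p ran from 0.0161 to 0.133 over the alternatives.

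In the branches that leave glycolysis, 5 of 16 tested genes were higher and 1 was lower, against 14.7% and 15.5% of all tested genes. The median log2 fold change was 0.02. PHGDH, the first enzyme of serine synthesis, which draws on the product of PGK1, had 173, 173 and 154 FPKM in DM_1, DM_2 and DM_3, against 88.7, 81.8 and 80.1 FPKM in GM_1, GM_2 and GM_3. It rose by 0.99 on the log2 scale (SE 0.0733, limma adjusted p = 0.00049). PSAT1, the next enzyme, had 31.3, 33.6 and 28.4 FPKM in DM_1, DM_2 and DM_3, against 17.4, 18.0 and 17.8 FPKM in GM_1, GM_2 and GM_3. Its log2 fold change was 0.78 (SE 0.0742, limma adjusted p = 0.00119). PSPH, the last enzyme, averaged 2.90 ± 0.657 FPKM in DM and 1.54 ± 0.309 FPKM in GM (SD, n = 3 each), with a log2 fold change of 0.61 and a limma adjusted p of 0.0306. All 3 genes of serine synthesis were thus called higher. PSPH, however, lost its call with no filter on low values, with the replicate number as a block, and without DM_1, DM_2, GM_1 or GM_2. Its adjusted p ran from 0.0226 to 0.0897 over the alternatives.

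SORD, which makes fructose from sorbitol, rose by 0.54 on the log2 scale (limma adjusted p = 0.00378). GFPT1, which opens the hexosamine pathway, had 31.3, 28.8 and 27.7 FPKM in DM_1, DM_2 and DM_3, against 56.6, 57.3 and 38.5 FPKM in GM_1, GM_2 and GM_3. Its log2 fold change was -0.76 (SE 0.160, limma adjusted p = 0.0171). The call of GFPT1 was lost without DM_2, DM_3, GM_1 or GM_2 (adjusted p 0.00332 to 0.057 over the alternatives). PGD, a dehydrogenase that makes NADPH, did not pass the test (0.16).

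For glycogen metabolism, 3 of 18 tested genes were higher and 1 was lower, against 14.7% and 15.5% of all tested genes. The median log2 fold change was 0.13. PHKA1, the regulatory subunit of phosphorylase kinase found in muscle, had 6.90, 7.30 and 7.72 FPKM in DM_1, DM_2 and DM_3, against 4.50, 4.38 and 4.17 FPKM in GM_1, GM_2 and GM_3. It rose by 0.63 on the log2 scale (SE 0.0747, limma adjusted p = 0.00214). Its catalytic partner PHKG1 had a log2 fold change of 0.34 (limma adjusted p = 0.0138), lost without DM_2 or GM_2, with 0.00837 to 0.0559 over the alternatives. GYG1, the primer of glycogen chains, had 0.44 (limma adjusted p = 0.0225). Its call was lost with the replicate number as a block and without DM_2, DM_3, GM_2 or GM_3 (0.0171 to 0.0707). PPP1R3C, which brings a phosphatase to glycogen, had -0.61 (limma adjusted p = 0.0193), lost without DM_2, GM_2 or GM_3 (0.0104 to 0.0665). UGP2 and PGM1, the most abundant of this list, did not pass the test (0.16 and 0.22). Of the 26 names on it, 4 were not matched, among them PYGM and GYS1. Of the gluconeogenesis genes, SLC37A4 and G6PC2 were tested and neither passed.

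**Figure D5:**
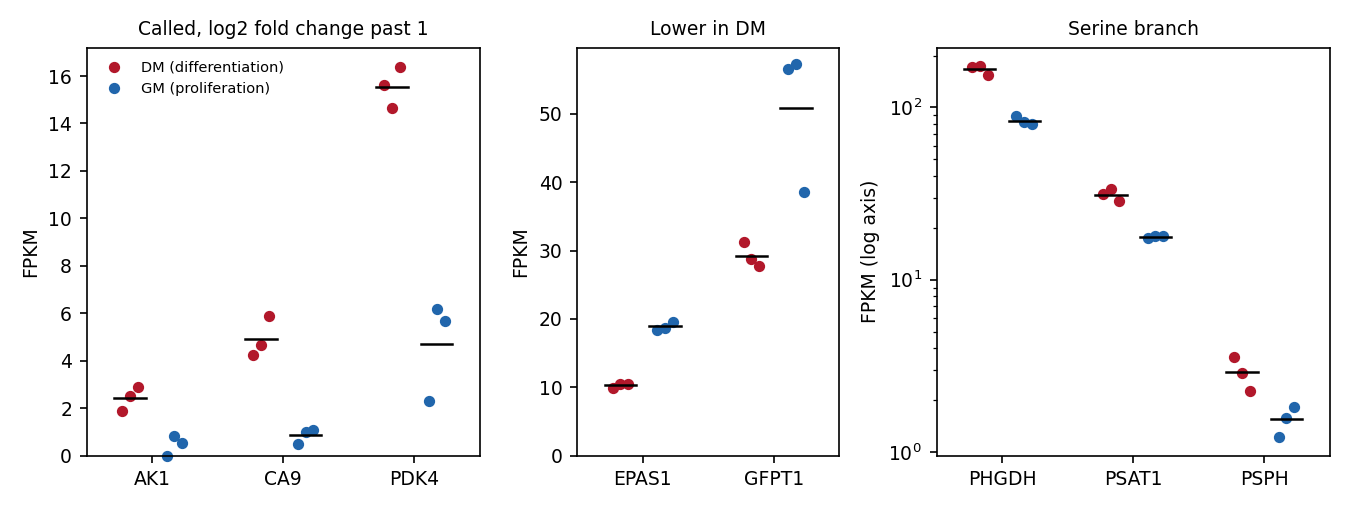
FPKM in each library, DM left of GM, with a bar at the stage mean where no library is listed at 0. AK1, CA9 and PDK4 are higher in every DM library, EPAS1 and GFPT1 are lower in every DM library, and the serine synthesis genes PHGDH, PSAT1 and PSPH, on a log axis, are higher in every DM library.

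Over the 7 lists of neighbouring enzymes and regulators together, 16 of 84 tested rows were called higher and 11 lower, against 14.7% and 15.5% of all tested genes, and the median log2 fold change was -0.05. With the limit on the fold change, 3 of the 84 rows (AK1, CA9 and PDK4) were called higher by limma, against 2.18% of all tested genes. With the same limit, 0 rows were called lower, against 1.84%, and 0 rows were lower at an unadjusted p under 0.05 as well. Of the 3 rows called higher, AK1 passed the filter on low values only through its DM level. In the annotation column of the gene table, the term for glycolysis and gluconeogenesis held 60 genes, some of them from the chosen list, of which 50 were tested, 9 were higher and 5 were lower, with a median log2 fold change of 0.09.

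The genes whose pattern over the 6 libraries lay nearest were sought by the root mean square difference of centred log2(FPKM + 1). For CKMT2 it was FBLN2, a fibulin of the extracellular matrix, at a difference of 0.0953. Adding 1 shrinks the 15.9-fold ratio of CKMT2 to a log2 fold change of 2.42, near the 2.31 of FBLN2. The match therefore holds on this scale and not for the ratio of FPKM. FBLN2 had 125, 111 and 91.6 FPKM in DM_1, DM_2 and DM_3, against 20.5, 21.3 and 21.5 FPKM in GM_1, GM_2 and GM_3, so DM_3 was again the lowest of DM. For GAPDH it was L3HYPDH, a hydroxyproline dehydratase, at 0.0231, with 10.9, 12.7 and 12.6 FPKM in DM_1, DM_2 and DM_3, against 6.93, 7.36 and 8.29 FPKM in GM_1, GM_2 and GM_3. This measure is a description over 6 libraries of 2 stages and was applied to all tested genes with a symbol.

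Antisense transcripts were looked for in the table of 14993 lncRNA transcripts, of which 478 overlapped exons of a gene on the opposite strand. At the listed genes there were 2, and both were found in DM_1. The transcript opposite the LDHA row, on scaffold NW_013185781.1 from 129735 to 130299 on the minus strand, with 2 exons, had 15.2 FPKM in DM_1 and at most 0.00436 FPKM in each other library. The transcript opposite the ENO1 locus, on scaffold NW_013185820.1 from 1111553 to 1111925 on the plus strand, also with 2 exons, had 7.995 FPKM in DM_1 and was listed at 0 in each other library. Of the 478, those with at least 1 FPKM in a single library and less than 0.01 FPKM elsewhere numbered 5, 1 and 4 in DM_1, DM_2 and DM_3, against 2, 5 and 3 in GM_1, GM_2 and GM_3. The library kit kept strand, and whether the counting used it was not given in the sources used here.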

How the data were processed

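The authors trimmed reads with Cutadapt, assembled transcripts with StringTie and deposited FPKM per gene and per lncRNA transcript, with 0.0001 in place of 0. The study's methods name Bowtie2 as the aligner and the submitters' processing notes list HISAT2 and TopHat, so the aligner is unsure. Columns with the authors' own comparison (fold change, its log, p- and q-values) were not used, and 0 per-sample columns were unmapped. The study gives read totals per library, which were not used here. FPKM held no whole-read steps, so the reads behind each value are unknown and the number of libraries limits precision.

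Log2(FPKM + 1) was fitted with limma 3.58.1 (lmFit, eBayes with trend) in R 4.3.3 over 10381 genes that averaged 0.5 FPKM or more, DM over GM, with Benjamini-Hochberg adjustment over all of them. The first call rule was an adjusted p under 0.05 with a log2 fold change past 1, and the second had no limit on the fold change. The study's methods name edgeR, a test for counts, which does not suit FPKM. The fit was tested on simulated data. Ratios and figures used Python 3.11.15.

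The genes, lists and rules were chosen with earlier results of these data known. Named were all listed genes, all rows of the glycolytic and phosphagen lists, genes past both limits and the 2 most abundant genes of every other list, and the gene nearest in pattern to CKMT2 and GAPDH. EGLN3, PDP1, PDP2, DLD, PSAT1, PSPH, SORD, GFPT1, PHKA1, PHKG1, GYG1, PPP1R3C and PFKFB2 to PFKFB4, the HIF1A, ARNT and TIGAR loci, PDK1, PDK3 and the tally of the annotation term were added after their values were seen. Rows without a symbol were matched by description or RefSeq identifier, and loci shared with other genes (8 in the neighbouring lists) were left out of counts. Counts of a list cover all its rows, and a few of these genes are not reported by name here. Markers were summed as FPKM. Alternatives were quantile normalization, a pseudocount of 0.1, a filter at 2 FPKM or none, equal library totals, equal library medians, no trend, the unadjusted p, the replicate number as a block, and each library left out in turn.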

Additional observations from a re-analysis of the deposited data

How the results depend on the processing

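With a pseudocount of 0.1 in place of 1, 810 genes were called (413 higher and 397 lower in DM), against 417 (226 higher and 191 lower). At a pseudocount of 1, the other alternatives gave 380 to 451 called genes. By adjusted p alone, 3143 genes were called, and leaving out 1 library at a time gave 1970 to 3075, with 1970 without DM_2, 2067 without GM_1, 2006 without GM_2 and 2060 without GM_3. The called rows of the 7 neighbouring lists numbered 27, and 16 to 28 with 1 library left out, with 16 without DM_2 and 16 without GM_2. Scaling moved the median log2 fold change of all tested genes from -0.03 to between -0.05 and -0.01. Of the 6 genes, 5 were higher in DM by sign, and 4 under quantile normalization, where PGAM1 turned to -0.08 and the LDHA row gave 0.07. CKMT2 ran from 2.33 to 3.71, CKB from -0.94 to -0.78, and LDHB from 0.51 to 0.68. The log2 difference of the LDHB to LDHA ratio ran from 0.23 to 0.27, and that of CKMT2 to CKB from 4.70 to 5.08, with 1 library left out.

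Libraries with the same number deviated together little, at correlations of 0.0337, 0.0211 and -0.00245. These values do not show that the numbers pair the libraries. With 3 libraries a stage, they cannot exclude it either. A block for the replicate number gave 403 called genes (221 higher and 182 lower), 2565 by adjusted p alone, and 24 of the neighbouring lists, where DLD, GYG1, PSPH and the second ALDOA row were no longer called and PHKA2 was. DM_1 and GM_1, and DM_2 and GM_2, correlated best with their own number, and DM_3 and GM_3 did not. The reads behind each value are unknown, and 3 libraries a stage limit what differences can be resolved.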
